A study of Caenorhabditis elegans with 7 samples.

Results

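The CYP-34A genes of *Caenorhabditis elegans* are a family of cytochrome P450 genes that lie close together on chromosome V. The set described here holds 8 of them, cyp-34A1, cyp-34A2, cyp-34A4, cyp-34A6, cyp-34A7, cyp-34A8, cyp-34A9 and cyp-34A10, of 19825 genes with a matched probe on the array. Their array probes were found by matching each probe's sequence name or accession to a gene symbol. By this match 7 of the 8 had a probe, 16 probes in all. The name cyp-34A4 matched no gene symbol in the reference, so no value is given under it. Whether dach-1 (sequence name T09H2.1), described below as a neighbour, is cyp-34A4 under another name was not checked. A gene was tested if any of its probes stood well above background on 3 arrays or more. That left 6 members among 14224 genes tested, and cyp-34A10 did not pass. The family was chosen by the difference between tomatidine-treated and vehicle-treated worms on these same 7 arrays, so the members' differences are given as a description with their errors and without p-values.

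Worms of the N2 Bristol strain (wild type, without transgene or mutation) were grown at 25 °C on agar with OP50 bacteria. From the last larval stage (L4) they were exposed to either the vehicle, 1% DMSO, or 25 μM tomatidine, a steroidal compound of unripe tomatoes, and whole worms were collected on adult day 7. Total RNA was labelled with Cy3 and hybridized to 1-colour Agilent arrays, 4 for vehicle and 3 for tomatidine. One label field calls the controls untreated and another calls them vehicle. The labels name independent experiments, while the methods name 3 probe preparations hybridized singly and a further hybridization that combined them. Which array holds the combined one is not identified, so n counts arrays and may exceed the number of distinct preparations, and the errors below measure the spread between arrays, part of which may be technical. The vehicle group has 1 array more than the tomatidine group, and the description of vehicle replicate 1 carries a tag that no tomatidine array shares.

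Cytochromes P450 are heme enzymes of the endoplasmic reticulum that insert an oxygen atom into fatty acids, steroids and foreign compounds. They draw electrons from an NADPH-dependent reductase and from cytochrome b5. In the worm many P450 genes are expressed in the intestine, the main organ of digestion, fat storage and detoxification, and genes of the CYP-34 and CYP-35 families are known to respond to foreign chemicals. The substrates of the single CYP-34A enzymes are not established, so the members are described by their place on the chromosome.

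Signals are normalized log2 values, in which each array's log2 signals were brought to the same mean and spread. Array values correlated with each other at 0.981 to 0.994 over all genes tested. Some arrays stood apart. The negative-control probes read 424 on vehicle replicate 2 and 237 on tomatidine replicate 1 against 75.1 to 114 on the other 5 arrays, and vehicle replicate 2 is the only array whose header records no multiplicative detrending of the signal. Over all genes, 11 were higher and 0 were lower with tomatidine at a Benjamini-Hochberg adjusted p of 0.05 in limma, and the unadjusted p was under 0.05 for 107 higher and 67 lower genes. The count depended on the fit. With the tag in the sample descriptions as a pairing block, which leaves 2 residual degrees of freedom, 23 genes were higher. With the replicate number of the titles as a block it was 28. In limma without its trend setting it was 6, and by the methods' two-group test 0. The median difference over all genes was -0.03.

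In tomatidine-treated worms cyp-34A7 was 6.11-fold higher than in vehicle-treated worms, while the other 5 members tested differed by 1.54-fold or less. cyp-34A8, next to it on the chromosome, was 1.54-fold higher. cyp-34A1, cyp-34A2, cyp-34A6 and cyp-34A9 overlapped between the groups. The median difference of the 6 tested members was 0.23 and 5 of the 6 were positive, although cyp-34A6 was negative within each slide, beside a median of -0.03 and 45.3% positive over all genes tested. By adjusted p, 1 of the 6 members was higher, where 0.0773% of all genes tested were. By values that did not overlap between the groups, with tomatidine higher, it was 2 of the 6, where 0.816% of all genes were. By the z-ratio of the methods, which divides a gene's difference in mean z-score by the spread of that difference over all genes, 2 of the 6 were at or above 1.5, where 5.29% of all genes were. Because this contrast chose the family, nothing is read from these shares.

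**Figure D1:**
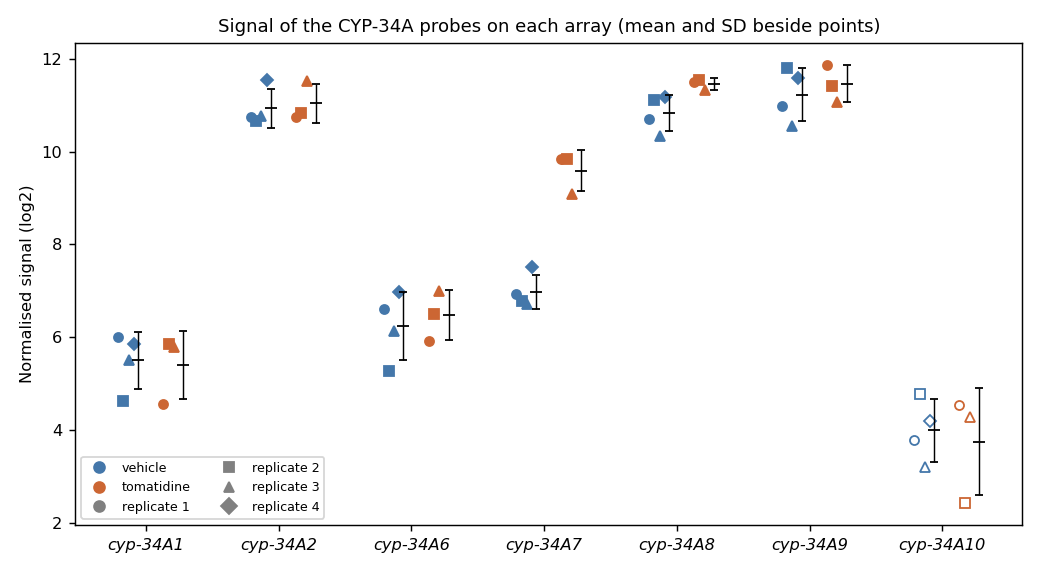
Normalized log2 signal (vertical axis) of the probe that stands for each CYP-34A gene (horizontal axis), 1 point per array, with blue for the 4 vehicle arrays, orange for the 3 tomatidine arrays, marker shape for the replicate number and bars for the mean and SD. The groups are apart for cyp-34A7 by 1.58 and for cyp-34A8 by 0.14. Open markers are cyp-34A10, which was not well above background on any array, and heights of different genes are not comparable on this array.

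In the gene order of RefSeq's WBcel235 assembly, the members lie in 2 runs on chromosome V. The array was designed on an older assembly, so the order is used only to name neighbours and no position is given. The longer run holds 6 CYP-34A genes in the order cyp-34A5, cyp-34A6, cyp-34A7, cyp-34A8, cyp-34A9 and cyp-34A10, with only small noncoding RNA genes between them. cyp-34A5 is not in the set and is described as a neighbour. The shorter run holds 2, cyp-34A1 and cyp-34A2. As the arrays were hybridized with RNA of whole worms, a lower or higher signal cannot separate fewer or more expressing cells from less or more RNA per cell.

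cyp-34A7 is in the middle of the longer run. Its normalized log2 signal on vehicle replicates 1 to 4 was 6.93, 6.77, 6.71 and 7.50, and on tomatidine replicates 1 to 3 it was 9.84, 9.85 and 9.09. All 3 tomatidine arrays were above all 4 vehicle arrays, and the lowest tomatidine array exceeded the highest vehicle array by 1.58. The means were 6.98 ± 0.36 (SD, n = 4) and 9.59 ± 0.43 (SD, n = 3). The difference was 2.61 on the log2 scale (SE 0.29, 95% interval 1.98 to 3.24), which is 6.11-fold with an interval of 3.95 to 9.46. In the scanner's processed signal, before scaling between arrays, the probe read 65.3 to 219 on the vehicle arrays and 504 to 846 on the tomatidine arrays. The probe was well above background on all 7 arrays.

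The gap was present on both slides, the glass supports that each carry several arrays. On slide 1, with vehicle replicates 1 to 3 and tomatidine replicate 1, the difference of cyp-34A7 was 3.03. On slide 2, with vehicle replicate 4 and tomatidine replicates 2 and 3, it was 1.97. Between arrays that share a tag in the sample descriptions it was 3.06 for the tag 300, 3.14 for 450 and 1.58 for fem, so the size varied by array while tomatidine was higher in 3 of 3 such pairs. Without vehicle replicate 1, which has no such partner, it was 2.59. The lower value of the fem pair came from both sides, since vehicle replicate 4 was the highest of the vehicle arrays and tomatidine replicate 3 the lowest of the tomatidine arrays.

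The size also depended on the signal it was computed from. From median spot signals that were background-corrected with normexp (offset 50) and quantile-normalized, the difference was 1.45. From raw median signals, without background subtraction, it was 1.66, against 2.61 for the processed signal. The vehicle arrays read 8.38 to 8.80 with normexp and 7.89 to 8.46 in raw median signals, against 6.71 to 7.50 in the processed signal. The groups did not overlap for cyp-34A7 in any of the 7 scalings computed. Only 1 probe reports this gene, so no other probe repeats the measurement, and whether it also binds transcripts of other CYP-34A genes was not tested.

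**Figure D2:**
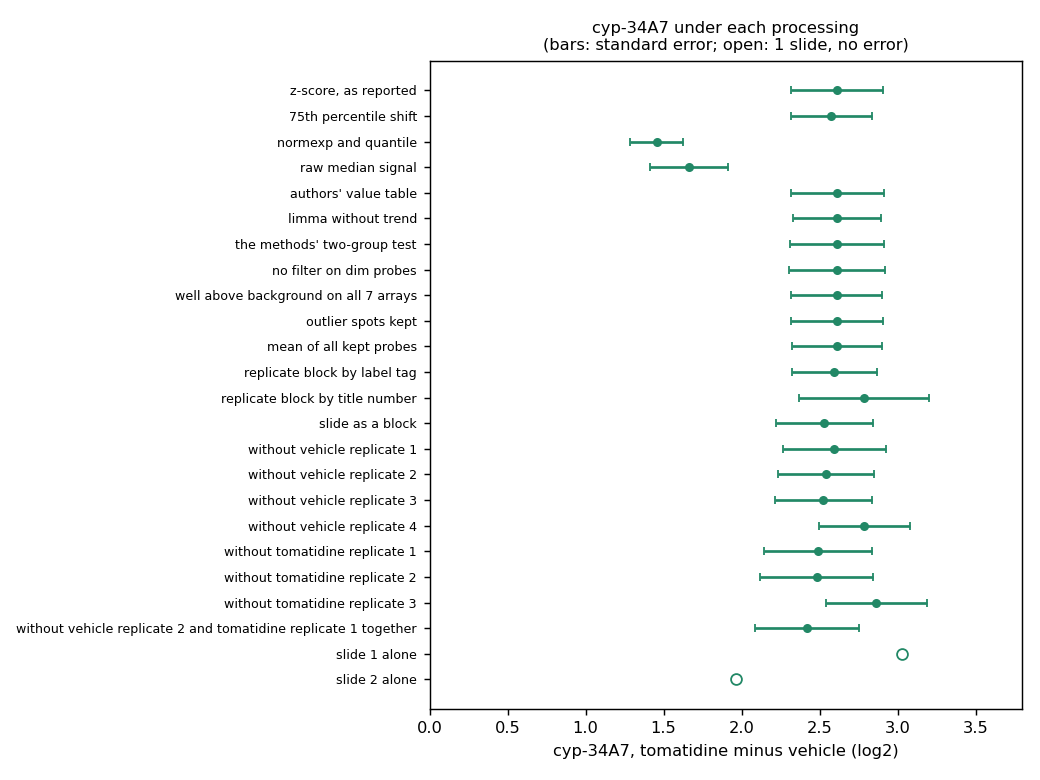
Difference of cyp-34A7 (tomatidine minus vehicle, log2, horizontal axis) as reported and under each other processing (vertical axis), with bars for the standard error and open points for values of a single slide, which carry no error. Values lie between 1.45 and 3.03, and the lowest 2 are those from median spot signals.

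cyp-34A8 follows cyp-34A7 in the run. It read 10.71, 11.12, 10.33 and 11.18 on vehicle replicates 1 to 4 and 11.51, 11.55 and 11.32 on tomatidine replicates 1 to 3. The lowest tomatidine array exceeded the highest vehicle array by only 0.14. The means were 10.83 ± 0.39 (SD, n = 4) and 11.46 ± 0.12 (SD, n = 3), and the difference was 0.62 (SE 0.22, 95% interval 0.15 to 1.10), 1.54-fold with an interval of 1.11 to 2.15. The separation depended on the scaling, as the groups did not overlap in 4 of 7 scalings and overlapped in the unscaled processed signal and in both scalings of median signals. cyp-34A8 was not past the adjusted threshold. Its difference was 0.79 on slide 1 and 0.26 on slide 2, and 0.39, 1.22 and 0.14 in the 300, 450 and fem pairs.

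cyp-34A9 follows cyp-34A8 and has the most probes of the set, 6. The probe with the highest mean read 10.98, 11.80, 10.55 and 11.59 on vehicle replicates 1 to 4 and 11.88, 11.42 and 11.08 on tomatidine replicates 1 to 3. The groups overlapped, with vehicle replicate 2 above 2 of the 3 tomatidine arrays. The difference was 0.23 (SE 0.29, 95% interval -0.38 to 0.85). On this probe the direction was not the same on both slides, at 0.77 on slide 1 and -0.33 on slide 2. On slide 2 the gene's other probes did not all go the same way. The next brightest read 11.33 on vehicle replicate 4 and 11.25 and 11.72 on tomatidine replicates 2 and 3. The 6 probes gave 0.23 to 0.48, all positive, and the probe that stands for the gene gave the smallest of them. Their mean differed by 0.38.

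cyp-34A6 lies on the other side of cyp-34A7, and its single probe was dimmer. Vehicle replicates 1 to 4 read 6.61, 5.27, 6.12 and 6.98, and tomatidine replicates 1 to 3 read 5.93, 6.50 and 7.01. The groups overlapped over most of their range. The difference was 0.23 (SE 0.44, 95% interval -0.70 to 1.17), so a change of up to 2.24-fold in the raised direction lies within the interval. Within slides the sign was the other way, at -0.08 on slide 1 and -0.23 on slide 2. The probe was well above background on 3 of 4 vehicle arrays and 3 of 3 tomatidine arrays.

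cyp-34A10, the last of the run, has 1 probe that was well above background on 0 of 7 arrays. It read 3.78, 4.78, 3.20 and 4.20 on vehicle and 4.55, 2.43 and 4.27 on tomatidine replicates. These values carry no order, so no difference is given for it.

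In the shorter run, cyp-34A1 and cyp-34A2 showed no separation of the groups. cyp-34A1 read 6.01, 4.63, 5.51 and 5.86 on vehicle replicates 1 to 4 and 4.56, 5.86 and 5.79 on tomatidine replicates 1 to 3. The lowest array of each group, vehicle replicate 2 and tomatidine replicate 1, is one of the 2 arrays with the brightest negative controls. The same 2 arrays were the lowest of their groups for cyp-34A6, and the part of this background in the values of both genes was not tested. The difference of cyp-34A1 was -0.10 (SE 0.48, 95% interval -1.13 to 0.93), with the probe well above background on 3 of 4 vehicle and 2 of 3 tomatidine arrays. A further probe of the gene was well above background on 1 array of each group and was not kept.

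cyp-34A2 read 10.75, 10.66, 10.77 and 11.55 on vehicle replicates 1 to 4. It read 10.76, 10.83 and 11.53 on tomatidine replicates 1 to 3. These are values of its brightest probe. On it 5 arrays lay close together, and the remaining ones, vehicle replicate 4 and tomatidine replicate 3, were higher and share the tag fem. The gene's other probes did not set vehicle replicate 4 apart, and on each of them vehicle replicate 3 was the lowest vehicle array. Another probe read 7.78, 7.90, 6.83 and 7.85 on vehicle replicates 1 to 4. The difference was 0.11 (SE 0.26, 95% interval -0.44 to 0.66), in the 3 tag pairs it was 0.10, 0.07 and -0.02, and it was 0.03 on slide 1 and -0.37 on slide 2. The gene's 4 probes differed by -0.11 to 0.11.

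**Figure D3:**
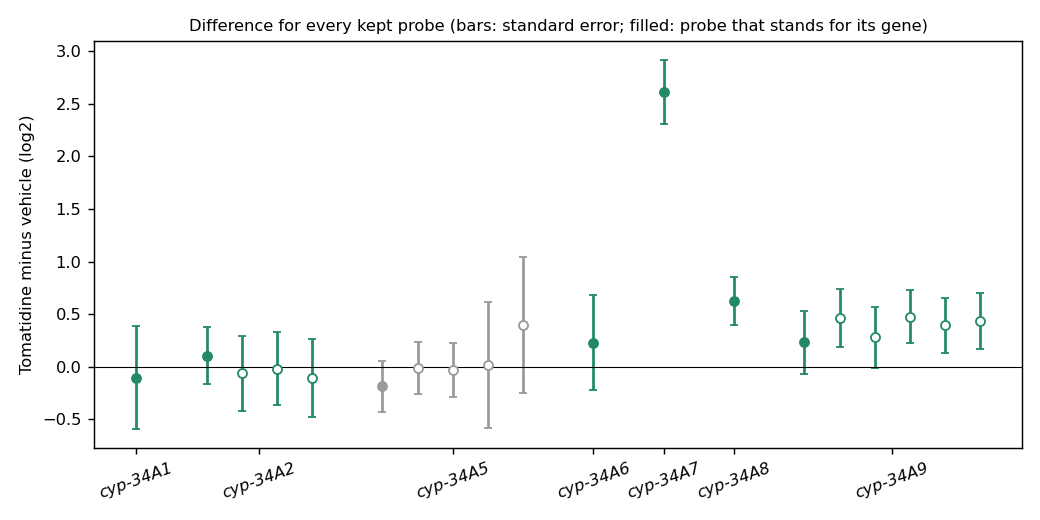
Difference between tomatidine and vehicle (log2, vertical axis) of each probe well above background on at least 3 arrays, grouped by gene (horizontal axis), with bars for the standard error from a fit over probes. Green marks genes of the set, grey the neighbour cyp-34A5, and filled points the probe that stands for its gene. The 6 probes of cyp-34A9 lie between 0.23 and 0.48 and the single probe of cyp-34A7 at 2.61.

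After the group means were subtracted, the members varied between arrays in different ways. Over the 7 arrays the Pearson correlation of these deviations was 0.91 between cyp-34A8 and cyp-34A9 and 0.89 between cyp-34A1 and cyp-34A6. cyp-34A2 and cyp-34A6 correlated at 0.78. cyp-34A7 correlated at 0.59 with cyp-34A8 and 0.54 with cyp-34A9, but at 0.16 with its other neighbour, cyp-34A6. cyp-34A1 and cyp-34A9 ran opposite to each other, at -0.60. The median over the 15 pairs of members was 0.16 with 10 pairs above 0, and over pairs of 712 tested genes it was 0.04. The 7 points of each correlation share arrays, background and scaling, and cyp-34A1 and cyp-34A6 are the tested members that were not well above background on every array.

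**Figure D4:**
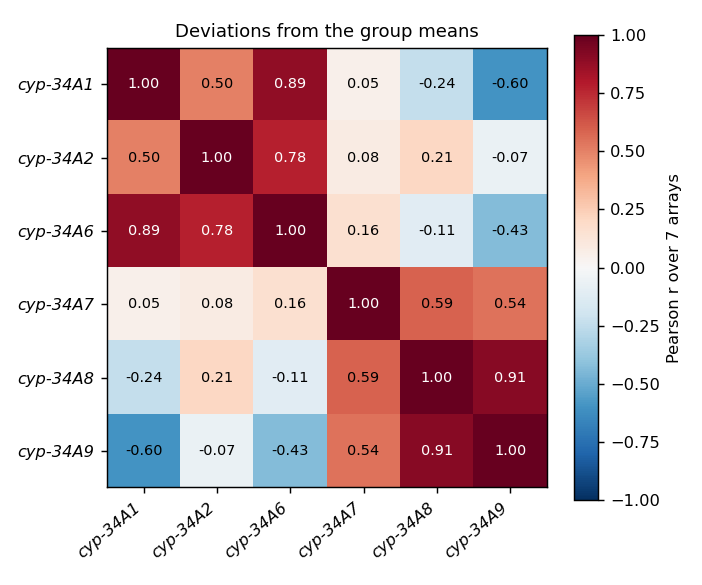
Pearson correlation over 7 arrays of the deviations from the group means for each pair of the 6 members tested (both axes), with red for positive and blue for negative values. cyp-34A8 and cyp-34A9 correlate at 0.91 and cyp-34A7 with both at over 0.5, while cyp-34A1, cyp-34A2 and cyp-34A6 correlate with each other.

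cyp-34A5, the first gene of the run, differed by -0.19 (SE 0.24), and its 5 probes gave -0.19 to 0.40. The nearest tested gene before it, dach-1 (sequence name T09H2.1), differed by -0.30 (SE 0.22). Whether dach-1 is cyp-34A4 under another name was not checked. On the other side, past cyp-34A10, the nearest tested gene was str-82, a chemoreceptor gene, at -0.12 (SE 0.50). Then comes the nlp-29 cluster, genes for antimicrobial peptides of the epidermis, with 2 protein-coding genes between it and cyp-34A10. Of its 6 genes, 0 passed the test in limma (2 at an unadjusted p under 0.05) and all 6 had a positive difference, with a median of 0.51. The differences were 0.97 (SE 0.38) for nlp-30, 0.71 (SE 0.30) for nlp-34, 0.52 for nlp-29, 0.50 for nlp-28, 0.29 for nlp-31 and 0.11 for nlp-27. Signals of nlp-30 were 7.87, 8.36, 7.77 and 8.04 on vehicle and 9.95, 7.94 and 9.06 on tomatidine replicates, so that tomatidine replicate 2 lay within the vehicle range. Tomatidine replicate 1 was the highest array for it, and the difference of nlp-30 was 0.49 without that array and 1.495 without tomatidine replicate 2. Without tomatidine replicate 1, nlp-34, nlp-29 and nlp-28 differed by 0.39, 0.31 and 0.24. Beside the shorter run, the nearest tested gene, cpr-3, which encodes a cathepsin B-like protease, differed by 0.02 (SE 0.20).

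The other cytochrome P450 genes were taken as those named cyp, and daf-9, without the neighbour cyp-34A5. They do not include dach-1, as whether it is cyp-34A4 was not checked. In limma 61 of these other genes were tested. Of these 3 passed as higher, 0 passed as lower and 58 stayed short of the threshold. 37 of the 61 had a positive difference, and their median was 0.12 against 0.23 for the CYP-34A members. The 3 that passed were cyp-33C1, cyp-13A3 and cyp-33D1, of which only cyp-33D1 was well above background on all 7 arrays. cyp-13A3, well above background on 2 of 4 vehicle and 3 of 3 tomatidine arrays, differed by 3.36 (SE 0.36, adjusted p 0.00097) and cyp-33D1 by 3.11 (SE 0.35, adjusted p 0.00097). cyp-33C1 was not well above background on any vehicle array, so its fold is uncertain. In the processed signal its tomatidine mean, 9.06, was 22-fold above 4.60, the vehicle mean of the lowest signals well above background. Spots that fail this flag can read above 4.60, so the 22-fold is not a firm lower bound, and it carries no error. The measured vehicle mean of cyp-33C1 was 3.75. Its adjusted p of 0.000316 is from the limma fit to the measured values. The sizes hold for the processed signal. From median signals with normexp and quantile normalization, and from raw median signals, the fitted differences were 1.77 and 1.96 for cyp-33C1, 1.48 and 1.63 for cyp-13A3, and 1.71 and 1.93 for cyp-33D1. Of the rest, the highest differences were 1.60 for cyp-33C2 (SE 0.34, limma adjusted p 0.359, and 0.0452 with the description tag as a pairing block) and 0.94 for cyp-35A4 (SE 0.63), and the lowest were -0.48 for cyp-14A3 (SE 1.04) and -0.41 for cyp-35D1 (SE 0.38). With its 2.61, cyp-34A7 ranked after these 3 and before cyp-33C2 in the processed signal, while from raw median signals its 1.66 lay above the 1.63 of cyp-13A3.

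**Figure D5:**
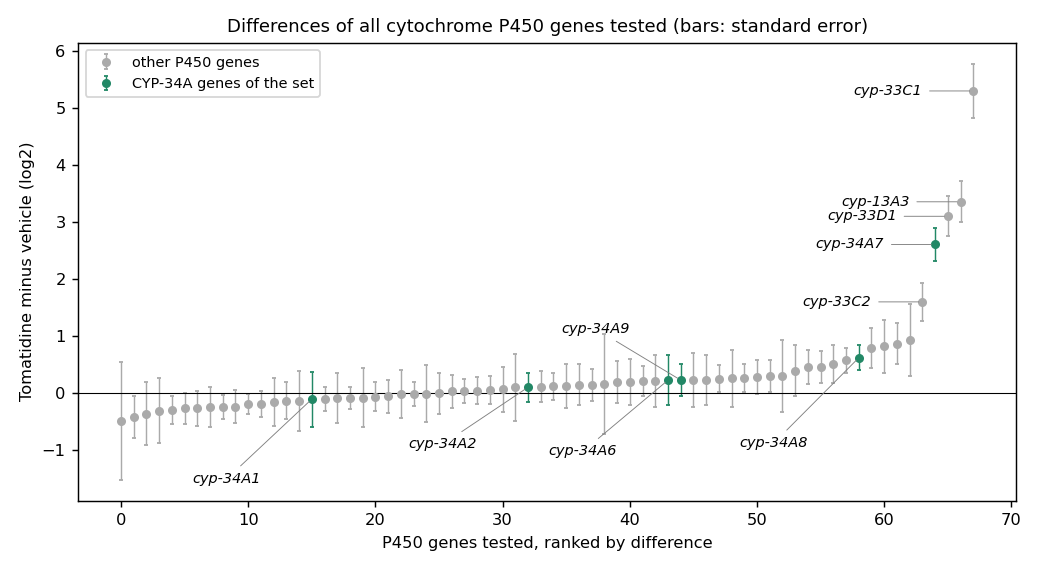
Difference between tomatidine and vehicle (log2, vertical axis) of the 6 members, cyp-34A5 and the 61 other cytochrome P450 genes tested. Genes are ranked from lowest to highest (horizontal axis), with bars for the standard error and grey for all but the members. Green marks the 6 CYP-34A members, of which cyp-34A7 at 2.61 is close to cyp-33D1 and cyp-13A3 and the others lie between -0.10 and 0.62. The fitted value drawn for cyp-33C1 rests on vehicle arrays below background.

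The genes whose levels over the 7 arrays were most like those of cyp-34A7 were in part the same P450 genes. Among 14218 genes compared, the Pearson correlation was 0.996 for cyp-13A3, 0.989 for cyp-33D1, 0.987 for cyp-33C1, 0.976 for T16G1.4 and 0.976 for pcp-4, a gene of the prolyl carboxypeptidase family. There were 27 genes at 0.9 or more, 9 of them past the test, and these values hold the difference between the groups that chose cyp-34A7. The difference of pcp-4 was 0.53 (SE 0.27), which did not pass in limma. With the group means subtracted, the closest were odr-2 at 0.986, gba-4 at 0.971, F37C12.10 at 0.957, F08F3.10 at 0.950 and F41G3.20 at 0.949. Of those 5, 0 passed the test. Their correlations with cyp-34A7 are over the same 7 arrays and share background and scaling.

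The electron donors of P450 enzymes came next. Of 4 redox partner genes, 0 passed in limma (0 at an unadjusted p under 0.05), and the median difference was 0.00. emb-8, the P450 reductase, differed by -0.16 (SE 0.24) and cytb-5.2, a cytochrome b5, by -0.02 (SE 0.23). Of 17 regulators of detoxification and fat metabolism, 0 passed (0 at an unadjusted p under 0.05), with a median of -0.09. Among them nhr-49, a nuclear receptor of fat metabolism, differed by -0.13 (SE 0.20) and wdr-23, a repressor of the stress regulator SKN-1, by -0.10 (SE 0.19).

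The families that act after P450 enzymes showed small differences on the median and 0 genes past the test in limma. The UDP-glucuronosyltransferases had 57 genes tested (unadjusted p under 0.05 for 2 higher and 1 lower gene), a median of 0.06, and values of -0.16 for ugt-25 and 0.36 for ugt-44. The glutathione S-transferases had 38 (0 at an unadjusted p under 0.05), a median of 0.09, and values of 0.05 for gst-1 and 0.07 for gst-7. The P-glycoprotein exporters had 14 (3 higher at an unadjusted p under 0.05), a median of 0.12, and values of 0.57 for pgp-9 and 0.06 for pgp-3.

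Markers of the tissues in a whole worm were set beside the members. Of 7 intestine markers tested, 0 passed in limma (0 at an unadjusted p under 0.05), and 2 had a z-ratio of at least 1.5, asp-1 among them. All 7 had a positive difference, with a median of 0.18, where 45.3% of all genes tested were positive. Their mean level ranged from 12.54 to 13.20 on the vehicle arrays and 12.95 to 13.19 on the tomatidine arrays. asp-1 differed by 0.57 (SE 0.36) and vha-6 by 0.10 (SE 0.21), and opt-2 had no matched probe. The part of intestinal RNA in the members' values was not tested. Of the markers of hypodermis (4 tested, median 0.27), body wall muscle (6, 0.10), neurons (6, -0.12), germline and oocytes (8, -0.07) and sperm (4, 0.13), 0 passed, with 0 at an unadjusted p under 0.05. The marker with the highest signal in each list differed by -0.03 for col-140, 0.14 for lev-11, -0.13 for snb-1, -0.03 for rme-2 and 0.28 for gsp-4. Of the 4 hypodermis markers, 2 had a z-ratio of at least 1.5, rol-6 at 1.76 (SE 0.87) and dpy-13 at 0.56 (SE 0.59), collagen genes named after their values were seen, and both overlapped between the groups. The hypodermal collagen genes dpy-7 and bli-1 were at or near background, the former well above it on 2 arrays and the latter on 0 of 7, and the sperm marker msp-10 had no matched probe.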

How the data were processed

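RNA of 7 samples (4 vehicle, 3 tomatidine) was measured. The authors extracted the deposited scanner files with Feature Extraction 11.5.1.1. Their processed signal is an intensity, background-subtracted and, on all arrays but vehicle replicate 2, detrended, and not normalized between arrays. The median signals of spots and background, deposited as an intensity, served 2 alternatives. The deposited value table is a score, the z-score per array, and correlated with the log2 processed signal at 1.0 on every array. The scanner's flags for outlier, saturated and well-above-background spots were used as deposited.

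Control spots and flagged outlier spots were left out. Repeat spots were then averaged as log2 values, which dropped 86 probes that had no spot left on an array. Of the remaining 43517 probes, 34476 matched a gene through RefSeq names (WBcel235) and 9041 did not. Log2 values were z-scored on each array and rescaled to the mean spread and mean level of the arrays. Each gene was represented by its brightest kept probe (highest mean). Groups were compared by limma (version 3.58.1, R 4.3.3; lmFit, then eBayes with trend), two-sided, with Benjamini-Hochberg adjustment over 14224 genes and 5 residual degrees of freedom. The code was tested on simulated data. The number of arrays limits the precision.

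The members, the gene lists and the tests were chosen with earlier results of these data known. Named were all members, other P450 genes past the test with the 2 highest and 2 lowest of the rest, for each list the genes past the test or else the 2 with the highest signal, the 5 genes most like cyp-34A7 by each measure, and genomic neighbours. gsp-4 and nlp-30 also fall under these rules, and dpy-7, bli-1, opt-2 and msp-10 were named for their lack of signal or probe, and rol-6 and dpy-13 for their values.

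The title numbers did not pair the arrays, as deviations of same-numbered arrays correlated at -0.53, -0.45 and -0.33. Arrays with the same tag in the descriptions correlated at 0.61, 0.19 and 0.51, and the tag served as the replicate block in an alternative. What the tags stand for is not given in the sources used here. Alternatives covered scaling, background, probe filter, probe choice, the trend, blocks, slides and each array left out.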

Additional observations from a re-analysis of the deposited data

Results flagged for a closer look

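In the 4 vehicle arrays, 52 genes named or listed were screened for an array far from the rest, and 2 stood out, where chance flags about 1 in 20 groups. On its brightest probe cyp-34A2 read 11.55 on vehicle replicate 4, against 10.66 to 10.77 on the other 3. The gene's other probes did not set this array apart. gsp-4, a sperm phosphatase gene, read 4.82 on vehicle replicate 2, the array with the brightest negative controls, against 6.20 to 6.27 on the other 3.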

How the results depend on the processing

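The contrast that chose the family was refitted here, so calls of its members describe the settings and are no independent support. cyp-34A7 was past the adjusted threshold in 20 of 21 alternatives with a test, all but the Student t-test, at 1.45 to 2.86. cyp-34A8 stayed positive in 23 of 23 alternatives and past the threshold in 0 of 21. Leaving out 1 array gave 2.48 to 2.86 for cyp-34A7, 0.46 to 0.74 for cyp-34A8, 0.01 to 0.42 for cyp-34A9, -0.39 to 0.32 for cyp-34A1, -0.14 to 0.31 for cyp-34A2, -0.094 to 0.51 for cyp-34A6, 0.49 to 1.495 for nlp-30, -0.11 to 0.27 for nlp-27, -0.047 to 0.50 for nlp-31 and -1.49 to 0.74 for cyp-14A3, and 7 to 11 genes higher, the 7 without tomatidine replicate 2. Members past the test were 1 with each array left out. Genes higher were 6 without the trend, 5 with probes well above background on all 7 arrays, and 0 by the Student t-test. That test also left 0 members and 0 other P450 genes, and the filter on all 7 arrays left 1 other P450 gene. With the replicate block by tag 23 genes were higher, cyp-34A7 differed by 2.59, cyp-34A1 by 0.068, nlp-27 by -0.11, and cyp-33C2 passed at 1.57. With the replicate block by title number 28 genes were higher and 1 lower, cyp-34A7 differed by 2.79, cyp-34A1 by 0.018, and cyp-33C2 passed at 1.81. Neither block changed the call of a member. Other sign changes were in values that passed no test, at -0.021 for cyp-34A2 and 0.039 for cyp-34A5 with the mean of all kept probes, and -0.16 for cyp-34A2 and -0.15 for cyp-34A6 with the slide as a block. Within slides, on the probe that stands for each gene, cyp-34A6 differed by -0.08 and -0.23, cyp-34A2 by -0.37 on slide 2 and cyp-34A9 by -0.33 on slide 2. Other probes of cyp-34A9 did not all share that sign. In an alternative chosen after seeing the data, without vehicle replicate 2 and tomatidine replicate 1, 1 gene was lower, cyp-34A1 differed by 0.029 and nlp-27 by -0.0089. Causes were not tested. Signals near background limit cyp-34A1, cyp-34A6 and cyp-34A10.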
